A study of Homo sapiens with 12 samples.

Results

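The MAGE genes described here are 10 members of the melanoma antigen family, MAGEA1, MAGEA3, MAGEA4, MAGEA6, MAGEA8, MAGEA10, MAGEA12, MAGEC2, MAGED1 and MAGED2, out of 58381 genes in a count table from 2 triple negative breast cancer cell lines. The family was chosen by the counts of MAGEA3 and MAGEA8, which were lower in cells that had lost CD44, so its values in CD44 KO and CD44 WT cells are a description: no p is given for them, and where calls of the fit over all genes are counted, nothing is read from the count. Hs578T cells come from a carcinosarcoma of the breast and MDA-MB-231 cells from a mammary adenocarcinoma, and CD44 is the cell surface receptor for hyaluronan. Poly(A) RNA was sequenced in 12 libraries, 3 in each of 4 groups: Hs578T CD44 WT, Hs578T CD44 KO, MDA-MB-231 CD44 WT and MDA-MB-231 CD44 KO. All 4 groups carried a doxycycline-inducible Cas9 delivered by a lentivirus and kept under puromycin, and all were starved in 1% serum for a day before RNA extraction. The KO groups were edited with a pair of guides, to exons 1 and 5 of CD44, and the WT groups went through a mock transfection that carried no guide. Live cells positive for CD29 were then sorted as CD44-positive (WT) or CD44-negative (KO) and expanded, so each group is 1 sorted population and not a set of clones. Separate cultures behind the 3 libraries are not stated in the sources used here, so errors and p-values measure the spread between these libraries.

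MAGE proteins share a conserved MAGE homology domain through which they bind RING-type ubiquitin ligases and change what these ligases act on. Type I genes, among them the MAGEA and MAGEC genes on the long arm of chromosome X, are silent in most adult tissues apart from the germ cells of the testis, are kept silent in part by promoter methylation, and are expressed again in many tumours, where T cells can recognize their peptides. Type II genes, among them MAGED1 and MAGED2 on the short arm, are expressed in many normal tissues, so the name cancer-testis antigen covers 8 of the 10 members only.

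The MAGEA promoters are shown because members that differed in their change carry similar ones. Start sites of 8 members, 15 in all, were in the RefSeq promoters of GRCh38.p14. MAGEA1 and MAGEA10 are named only. The 250 bases before a start were searched on both strands for CCGGAA, a core bound by ETS factors, and for GGATGTGA, a run that stood out when the sequences were read and does not overlap the former. GGATGTGA was found before 10 start sites of 5 members (MAGEA3, MAGEA4, MAGEA6, MAGEA8 and MAGEA12), against 0.97% of 35116 start sites of all genes. Since the run was picked from these related sequences, no excess is read from this share. The MAGEC2 window ends in ggatgt, so a run that crosses its start site could not be seen. CCGGAA was found before 2 start sites, those of MAGEA3 and MAGEA6, against 14.53% of all. The capitals below mark these runs, 5′ to 3′, and the last base of each line precedes the start site. The first start site of a gene is shown, and the MAGEA6 copy of the first line lies at chrX:152769690-152769939 on the minus strand. A match is a description of the letters and not of a bound site.
MAGEA3, identical to MAGEA6 (chrX:152698544-152698793, plus strand): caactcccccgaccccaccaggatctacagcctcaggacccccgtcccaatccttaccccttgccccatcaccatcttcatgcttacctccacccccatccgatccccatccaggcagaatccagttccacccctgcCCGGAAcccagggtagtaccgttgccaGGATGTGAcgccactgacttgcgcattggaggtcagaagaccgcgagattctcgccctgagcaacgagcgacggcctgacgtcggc
MAGEA8 (chrX:149880933-149881182, plus strand): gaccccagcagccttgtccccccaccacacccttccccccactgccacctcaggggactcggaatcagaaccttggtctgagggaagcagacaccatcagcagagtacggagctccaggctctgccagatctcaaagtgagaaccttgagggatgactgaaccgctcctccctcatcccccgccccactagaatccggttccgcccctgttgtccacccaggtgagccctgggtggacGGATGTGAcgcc
MAGEA4 (chrX:151912224-151912473, plus strand): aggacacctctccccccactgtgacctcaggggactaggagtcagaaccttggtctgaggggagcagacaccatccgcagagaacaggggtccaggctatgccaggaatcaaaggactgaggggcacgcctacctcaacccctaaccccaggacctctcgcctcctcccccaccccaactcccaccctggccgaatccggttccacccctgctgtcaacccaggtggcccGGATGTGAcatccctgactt
MAGEA12 (chrX:152733507-152733756, plus strand): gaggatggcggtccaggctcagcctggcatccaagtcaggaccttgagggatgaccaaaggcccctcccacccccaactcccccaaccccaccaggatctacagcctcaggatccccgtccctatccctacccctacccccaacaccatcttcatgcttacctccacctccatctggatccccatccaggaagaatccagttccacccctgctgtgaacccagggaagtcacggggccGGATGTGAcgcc
MAGEC2 (chrX:142205291-142205540, minus strand): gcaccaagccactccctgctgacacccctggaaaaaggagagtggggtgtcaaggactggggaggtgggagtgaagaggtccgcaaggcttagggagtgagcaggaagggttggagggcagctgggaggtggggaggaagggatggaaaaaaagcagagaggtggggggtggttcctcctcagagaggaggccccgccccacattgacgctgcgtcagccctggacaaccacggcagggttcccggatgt

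The MAGEA3 and MAGEA6 genes are read towards each other from start sites 70.9 kb apart, and 535 bases before these starts were the same without a break. The MAGEA3 promoter held 15 CG pairs, the MAGEA8 promoter 8 and the MAGEC2 promoter 6, against a median of 11 over all start sites. The coding sequences of MAGEA3 and MAGEA6 were both 945 bases long and differed at 18 of them, an identity of 98.1%. MAGEA12 had 92.6% identity with MAGEA3, and MAGEA8 had 79.2%. The stretch below, coding bases 573 to 632, holds 4 of the 18 differences between MAGEA3 and MAGEA6, which stand in capitals (GRCh38, as all positions here).
MAGEA3 (chrX:152701405-152701464, plus strand): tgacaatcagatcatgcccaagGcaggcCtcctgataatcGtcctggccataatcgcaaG
MAGEA6 (chrX:152767019-152767078, minus strand): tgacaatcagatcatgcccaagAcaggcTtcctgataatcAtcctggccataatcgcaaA

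How far the counts can tell these copies apart was measured from the genome, because fragments that aligned to several places were not counted. Of the exonic 50-base stretches of MAGEA3, as long as 1 read, 43.08% occurred once in GRCh38, and 55.21% also occurred in MAGEA6. The unique share was 39.89% for MAGEA6, 72.37% for MAGEA4 and 84.77% for MAGEA12. It was between 95.15% and 100% for the other 6 members. The share of whole fragments that could be counted was not measured, since a pair can be placed by 1 unique read. Levels of MAGEA3 and MAGEA6 per exonic length are therefore lower than their full levels by an unknown amount. Fragments of one copy that carry a sequencing error could still be assigned to the other, which was not tested.

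Total counts ranged from 10257586 to 19725543 per library. CD44, the targeted gene, lay between 493.9 and 527.2 CPM, counts scaled to the library's normalized total, in the Hs578T CD44 WT libraries and between 24.9 and 28.6 CPM in the KO libraries. In MDA-MB-231 it lay between 359.6 and 362.7 CPM in WT and between 30.0 and 40.3 CPM in KO. KRT8, KRT18 and 3 mesenchymal markers were present in both lines, but KRT5 was at 0 in MDA-MB-231 and EPCAM had 2 counts over the 3 Hs578T CD44 WT libraries. Of ESR1, PGR and ERBB2, PGR was at 0 in all 12 libraries. ESR1 had 29 counts over the Hs578T CD44 WT libraries and 1 over those of MDA-MB-231. The sum of these 3 genes lay between 77.3 and 83.4 CPM in Hs578T CD44 WT and between 87.2 and 102 CPM in KO. In MDA-MB-231 it lay between 64.8 and 88.3 CPM in WT and between 57.4 and 64.2 CPM in KO. The summed level of 5 epithelial markers lay between 961 and 997 CPM in Hs578T CD44 WT and between 875 and 932 CPM in KO, and in MDA-MB-231 between 913 and 1179 CPM in WT and between 759 and 830 CPM in KO. The mesenchymal sum lay between 5085 and 5338 CPM in MDA-MB-231 CD44 WT and between 6627 and 7675 CPM in KO, and overlapped between the Hs578T groups. Of 4 leukocyte markers, the summed level was between 1.04 and 1.48 CPM in Hs578T CD44 WT and between 3.51 and 5.21 CPM in KO, mostly from PTPRC. In MDA-MB-231 the sum lay between 0.424 and 0.943 CPM. The sum of 3 endothelial markers lay between 11.9 and 14.2 CPM in Hs578T CD44 WT and between 14.8 and 15.5 CPM in KO. For MDA-MB-231 these markers summed to between 1.69 and 3.33 CPM in WT and between 1.78 and 4.15 CPM in KO. The part of these shifts in the results was not tested.

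**Figure D1:**
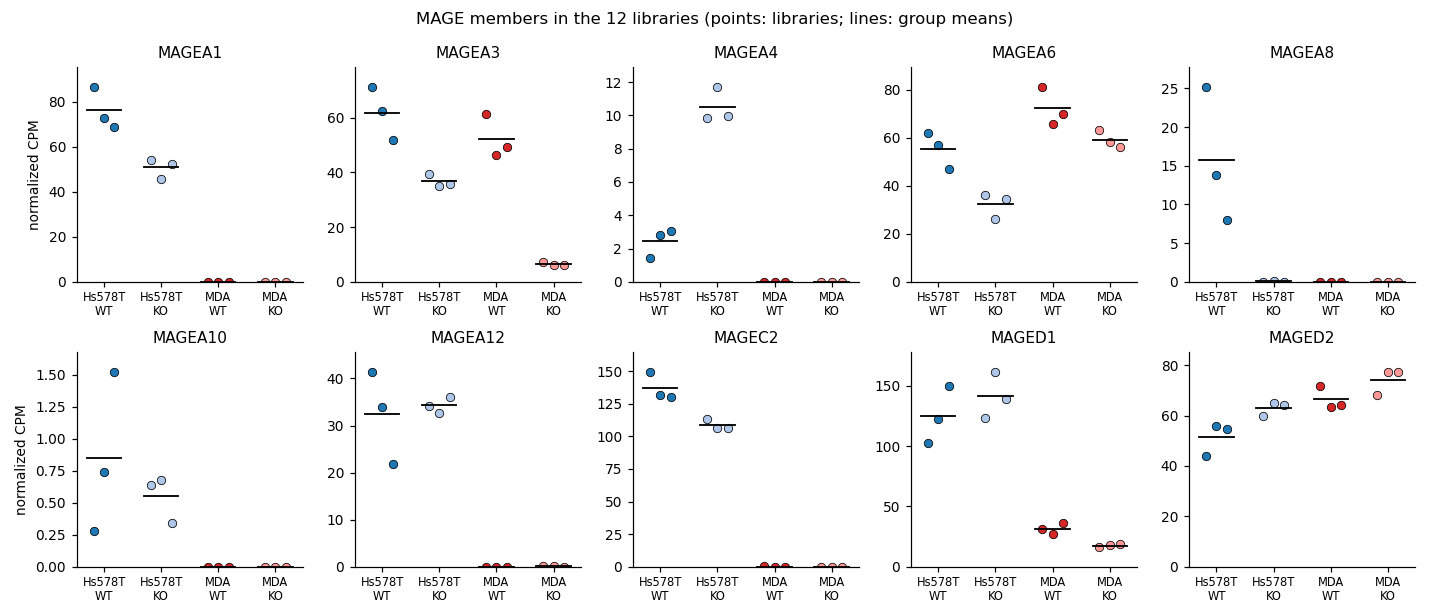
CPM (normalized, linear axis, from 0) of the 10 members in each library, with MDA standing for MDA-MB-231. Points are libraries and lines are means of 3. MAGEA8 is near 0 in the Hs578T CD44 KO libraries, MAGEA3 is lowest in the MDA-MB-231 CD44 KO libraries, and 6 members are at or near 0 in both MDA-MB-231 groups.

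Both lines expressed MAGEA3, MAGEA6, MAGED1 and MAGED2, whereas the other 6 were found in Hs578T, and MDA-MB-231 had at most 2 counts of any of them in a group. Levels per kilobase of exon (CPM divided by exonic length in kilobases, RPKM) allow an order within a group, apart from MAGEA3 and MAGEA6, whose values are minimum levels. Values of MAGEA4 and MAGEA12 may also be too low, as 72.37% and 84.77% of their stretches were unique, so their places are approximate. The exonic length covers all annotated exons, 6016 bases for MAGED1 and 1710 for MAGEA1. Annotated exons that these cells do not use would lower a value, so the whole order is approximate. In Hs578T CD44 WT, MAGEC2 was at 68.8 ± 5.41 RPKM (SD, n = 3) and MAGEA1 at 44.5 ± 5.40 RPKM, while MAGEA3 was at 34.5 ± 5.45 RPKM and MAGEA6 at 29.6 ± 4.09 RPKM, so their places relative to the former 2 are not known. The libraries of MAGEA3 and MAGEA6 overlapped, as did those of MAGED1 (20.7 ± 3.94 RPKM), MAGED2 (17.5 ± 2.25 RPKM) and MAGEA12 (16.6 ± 5.10 RPKM). MAGEA8 was at 6.64 ± 3.69 RPKM, and MAGEA4 (0.790 ± 0.278 RPKM) and MAGEA10 (0.292 ± 0.217 RPKM) were lowest, with overlapping libraries. In MDA-MB-231 CD44 WT, MAGEA6 was at 38.8 ± 4.30 RPKM and MAGEA3 at 29.3 ± 4.34 RPKM, and their places relative to each other are not known. MAGED2 at 22.6 ± 1.55 RPKM lay below the minimum levels of both, and MAGED1 at 5.25 ± 0.734 RPKM lay below MAGED2, without overlap. MAGEA1, MAGEA4, MAGEA8 and MAGEA10 had 0 counts in all 6 MDA-MB-231 libraries, which allows up to 0.0852 CPM over the WT and 0.0735 CPM over the KO libraries. MAGEA12 had 2 counts over the MDA-MB-231 CD44 KO libraries, and MAGEC2 had 2 over the WT libraries.

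The CD44 WT cells of the lines were compared with a test for MAGED1, MAGED2 and MAGEA6, since that contrast was not used to choose the family, although its libraries were. MAGEA1, MAGEA4, MAGEA12 and MAGEC2 passed the filter on low counts only through Hs578T, where they are high, so their difference is a description. Genes were tested where more than 1 CPM was reached in at least 2 libraries, and a call needed an adjusted p no greater than 0.01 from edgeR's quasi-likelihood test over 15836 genes. Of the 3 members tested here, MAGED1 was called higher in Hs578T and MAGED2 lower. Among all genes tested, 61.5% were called, 32.2% higher and 29.4% lower. MAGEA1 was higher by at least 902-fold, MAGEA12 by at least 387-fold and MAGEA4 by at least 27.8-fold, over MDA-MB-231. These bounds set the counts over 3 libraries against a floor of 3 counts. MAGEC2, with 5291 counts against 2, had a ratio of 2427 (95% counting interval 672 to 20047).

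MAGED1, a type II member that binds the p75 neurotrophin receptor, was higher in Hs578T CD44 WT at 102.4, 122.3 and 149.6 CPM than in MDA-MB-231 CD44 WT at 31.3, 27.4 and 36.2 CPM. The log2 difference was 1.98 ± 0.14 (standard error, edgeR adjusted p = 7.94e-09). MAGED2, a type II member known from an inherited salt-losing disorder of the kidney before birth, was lower in Hs578T, with 43.97, 56.0 and 54.7 CPM against 71.6, 63.3 and 64.2 CPM. Its log2 difference was -0.37 ± 0.10 (edgeR adjusted p = 0.00505). That call was lost without Hs578T CD44 WT replicate 1 (log2 difference -0.26), without Hs578T CD44 KO replicate 3 (-0.34), without MDA-MB-231 CD44 WT replicate 1 (-0.31), and with no scaling factors (-0.25). MAGEA6 had a log2 difference of -0.39 ± 0.13 and missed the threshold (edgeR adjusted p = 0.0148), although its Hs578T libraries lay below all MDA-MB-231 libraries, as for 34.2% of all genes tested. It was called without Hs578T CD44 KO replicate 2 (-0.38), without the unnumbered MDA-MB-231 CD44 WT library (-0.45), with no filter on low counts (-0.37) and with a replicate block by title number (-0.39).

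In Hs578T, 4 members were called lower in CD44 KO, 1 was called higher and 4 were not called. Without MAGEA3 and MAGEA8, which the choice of the family fixed, this was 2 lower and 1 higher of 7. The 10th, MAGEA10, was below the filter. Among all genes tested, 7.51% were called, 3.86% lower and 3.64% higher. All 3 KO libraries lay below all 3 WT libraries for 18.6% of genes and above them for 18.7%. The members lower in KO were MAGEA8, MAGEA6, MAGEA3 and MAGEA1, and the member higher was MAGEA4.

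MAGEA8, a type I member whose own role is little known, was at 25.2, 13.8 and 8.04 CPM in the 3 WT libraries and at 0, 0.123 and 0 CPM in the KO libraries. All WT libraries lay above all KO libraries, though they spread over a wide range themselves. In counts this was 626 against 2, a ratio of 329 (95% interval 90.8 to 2726, for counting error only). The fitted log2 fold change of -8.06 ± 0.71 depends on the prior count, and it was -10.64 without Hs578T CD44 KO replicate 2, the library that held both KO counts. Nearly all of the MAGEA8 exonic stretches were unique, 99.35%.

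MAGEA3 and MAGEA6 bind the ubiquitin ligase TRIM28, and the ligase with either of them marks AMP-activated protein kinase for degradation. MAGEA3 was at 71.2, 62.4 and 51.7 CPM in Hs578T CD44 WT and at 39.2, 35.0 and 35.8 CPM in KO. MAGEA6 was at 61.8, 57.0 and 46.9 CPM in WT and at 36.1, 26.3 and 34.4 CPM in KO. For both genes the groups did not overlap, and the log2 fold changes were -0.75 ± 0.13 for MAGEA3 and -0.78 ± 0.13 for MAGEA6. The 2 copies kept about the same proportion, with 1.12 ± 0.0305 MAGEA3 counts per MAGEA6 count in WT and 1.15 ± 0.156 in KO.

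MAGEA1, the first member of the family to be found as a T cell antigen, was at 86.6, 72.9 and 69.0 CPM in WT and at 54.3, 45.8 and 52.5 CPM in KO. Its log2 fold change was -0.58 ± 0.12, and the groups did not overlap. It was not called without Hs578T CD44 WT replicate 1 or 2 or without any 1 of the 3 KO libraries, with log2 fold changes from -0.65 to -0.48 over all libraries left out in turn. MAGEC2, which also binds TRIM28, was at 149.5, 131.4 and 130.3 CPM in WT and at 113.6, 106.6 and 106.6 CPM in KO. The groups did not overlap, but the log2 fold change of -0.33 ± 0.11 was called only with Hs578T fitted alone, among the alternatives run.

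MAGEA4, which binds and stabilizes the DNA damage ligase RAD18, went the other way. It was at 1.46, 2.80 and 3.05 CPM in WT and at 9.87, 11.7 and 9.98 CPM in KO, a log2 fold change of 2.13 ± 0.26. All KO libraries lay above all WT libraries. MAGEA4-AS1, which runs antisense across the start of MAGEA4 and was counted by strand, was higher too (log2 fold change 2.31 ± 0.50). It had 13 counts over the Hs578T CD44 WT libraries. It passed the filter on low counts only through Hs578T CD44 KO, where it is high, so its rise and its call are a description. MAGEA4 itself, at 3.41 ± 0.336 RPKM in KO, stayed below every other member but MAGEA8 and MAGEA10.

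MAGEA12, an antigen close in sequence to MAGEA3, was at 41.4, 33.9 and 21.8 CPM in WT and at 34.1, 32.7 and 36.0 CPM in KO. The groups overlapped, and the log2 fold change of 0.08 ± 0.19 became -0.14 without Hs578T CD44 WT replicate 3 and 0.30 without replicate 1. MAGED1 was at 123.2, 161.6 and 139.3 CPM in KO, overlapping its WT values (log2 fold change 0.18 ± 0.14). MAGED2 was at 59.9, 65.1 and 64.1 CPM in KO, above all WT libraries, with an uncalled log2 fold change of 0.29 ± 0.10. MAGEA10, an antigen expressed at a trace level here, had 4, 9 and 18 counts in WT and 8, 11 and 4 counts in KO.

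**Figure D2:**
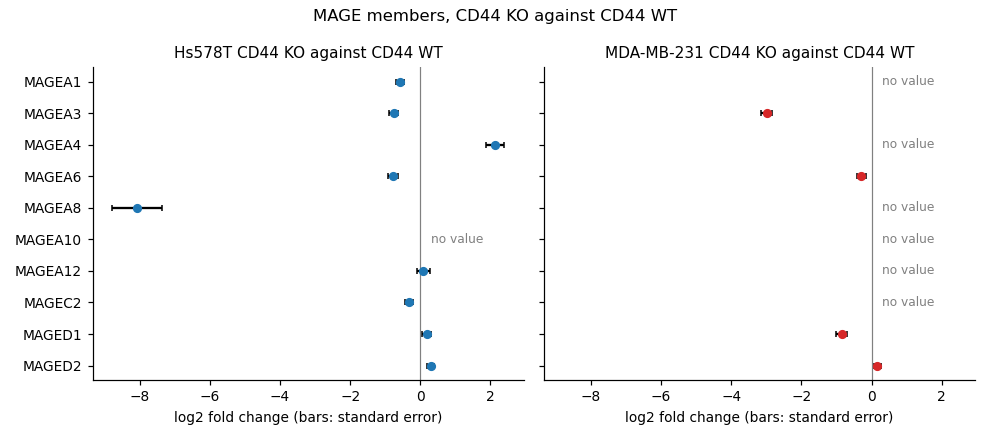
Fitted log2 fold change of each member, CD44 KO against CD44 WT, in Hs578T and in MDA-MB-231, on a shared linear axis. Points are estimates and bars are standard errors, and "no value" marks members that were not tested or had at most 3 counts in both groups. MAGEA8 lies at -8.06 in Hs578T and MAGEA3 at -2.99 in MDA-MB-231.

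In MDA-MB-231, 2 of the 4 members with counts were called lower, MAGEA3 and MAGED1, and 1 of 3 without MAGEA3. Among all genes tested, 4.62% were called, 2.65% lower and 1.97% higher, and 13.7% had all KO libraries below all WT libraries. MAGEA3 was at 61.1, 46.4 and 49.4 CPM in WT and at 7.37, 6.30 and 6.12 CPM in KO. The groups lay far apart, with a log2 fold change of -2.99 ± 0.15 and a range from -3.07 to -2.86 when each library was left out in turn. MAGED1 was at 31.3, 27.4 and 36.2 CPM in WT and at 16.5, 17.6 and 18.5 CPM in KO, also without overlap (log2 fold change -0.85 ± 0.15). The call of MAGED1 was lost without MDA-MB-231 CD44 WT replicate 3, KO replicate 1 or KO replicate 2, where the count of members called was 1.

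MAGEA6, with the same promoter sequence as MAGEA3, was at 81.2, 65.7 and 69.8 CPM in WT and at 63.0, 58.2 and 56.1 CPM in KO. The libraries did not overlap, but the log2 fold change was -0.29 ± 0.13 and was not called. The MAGEA3 counts per MAGEA6 count fell from 0.753, 0.707 and 0.707 in WT to 0.117, 0.108 and 0.109 in KO. The 3 KO libraries agreed closely, and all lay below every other library of the study. MAGED2 was at 71.6, 63.3 and 64.2 CPM in WT and at 68.3, 77.2 and 77.3 CPM in KO, with overlap (log2 fold change 0.16 ± 0.10).

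**Figure D3:**
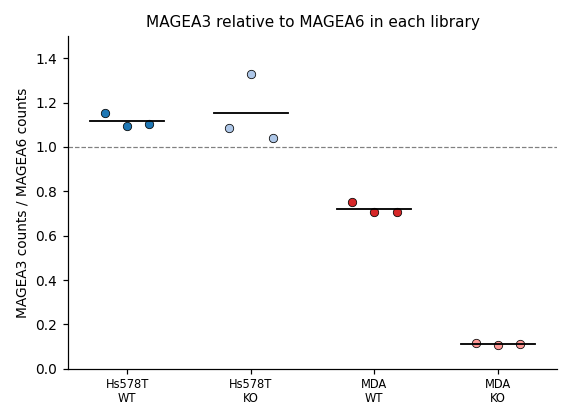
MAGEA3 counts per MAGEA6 count (linear axis, from 0) in each of the 12 libraries, with MDA standing for MDA-MB-231. Points are libraries, lines are means of 3, and the dashed line marks equal counts. The ratio is above 1 in all 6 Hs578T libraries and falls from 0.722 ± 0.0264 to 0.111 ± 0.00473 in MDA-MB-231.

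Summed over the 10 members, the level was 558 ± 23.9 CPM in Hs578T CD44 WT and 479 ± 7.31 CPM in KO. In MDA-MB-231 the sum was 223 ± 21.4 CPM in WT and 158 ± 2.09 CPM in KO. These sums hold MAGEA3 and MAGEA8, whose fall chose the family. Fewer cells that express a gene and less RNA per cell cannot be told apart in bulk libraries.

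The MAGEA and MAGEC members lie in distal Xq, and so do many genes that were lower in Hs578T CD44 KO. Of 48 other tested genes within 1 Mb of a MAGEA member, 41 had a log2 fold change below 0 in Hs578T, with a median of -0.42 against -0.00 over all genes tested. Called lower were 7 of them, among them GABRE, NSDHL, ZFP92, PDZD4, ARHGAP4 and IRAK1, and called higher were 2 (MAGEA4-AS1 and PNMA5). Over all genes tested, 3.86% were called lower and 3.64% higher. MAGEA4-AS1 passed the filter on low counts only through Hs578T CD44 KO. PNMA5 rose from 45.4 ± 9.47 to 347 ± 35.2 CPM. In MDA-MB-231 the median of the 38 neighbours with counts was -0.09, and MAGEA11 was the 1 called, where 4.62% of all genes tested were called.

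This region was then followed along the whole chromosome, a view chosen after the neighbours were seen. Beyond position 130 on the scale of megabases (Mb), 116 of 136 X-linked genes other than the members were below 0 in Hs578T (median log2 fold change -0.41), whereas 175 of the 440 genes on the rest of the chromosome were (median 0.08). The medians of the single KO libraries, against the WT mean, were -0.36, -0.39 and -0.40. The WT libraries differed as well, at 0.17 for replicate 1, -0.00 for replicate 2 and -0.15 for replicate 3. WT replicate 1 was also the highest WT library for MAGEA1, MAGEA3, MAGEA6, MAGEA8, MAGEA12 and MAGEC2. It was the lowest for MAGEA4 and MAGEA10, and also for MAGED1 and MAGED2 on the short arm. In MDA-MB-231 the median of 120 distal genes was -0.12, and that of 399 others was -0.07. In Hs578T the log2 fold changes of MAGEA1, MAGEA3, MAGEA6 and MAGEC2, from -0.78 to -0.33, lay on the same side as the median of their region, that of MAGEA12 (0.08) lay on the other side of 0, and those of MAGEA8 and MAGEA4 lay far from it on either side. The part of this regional difference in the values of the members was not tested.

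**Figure D4:**
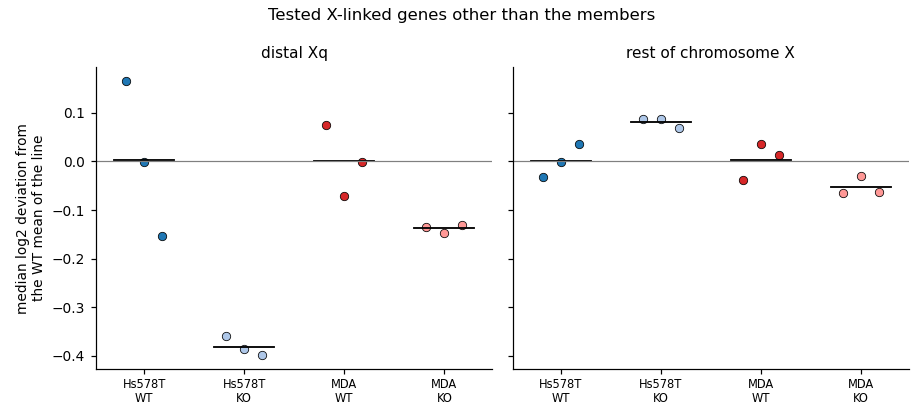
Median log2 deviation of X-linked genes other than the members from the CD44 WT mean of their line, for genes beyond 130 Mb (left) and the rest of the chromosome (right), with MDA standing for MDA-MB-231. Points are libraries and lines are means of 3. The Hs578T CD44 KO libraries lie between -0.40 and -0.36 in distal Xq and above 0 elsewhere, and the Hs578T CD44 WT libraries spread from -0.15 to 0.17 in distal Xq.

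Among 29 other genes of the MAGE superfamily, 13 were tested. Like the lists below, this one was chosen with earlier results of these data known, so its counts of calls are a description. In Hs578T, 3 were called lower and 0 higher, against 3.86% and 3.64% of all genes tested. They were MAGEB1 (log2 fold change -4.96 ± 0.53), MAGEB2 (-3.20 ± 0.43, edgeR adjusted p = 0.000112) and MAGEC1 (-0.49 ± 0.10, edgeR adjusted p = 0.00743). MAGEB1 and MAGEB2 lie on the short arm of X, away from the MAGEA genes. MAGEB1 fell from 3.35 ± 0.706 to 0.0901 ± 0.0926 CPM. It passed the filter on low counts only through Hs578T CD44 WT, where it is high, so its fall and its call are a description. With 4 counts over the KO libraries, its fold change depends on the prior count. At an unadjusted p under 0.05, 6 genes of this list were lower and 1 higher, and DESeq2 called 0 higher. No share over all genes is given at this unadjusted threshold, so nothing is read from such counts, here or for the lists below. In MDA-MB-231, 3 were called lower and 0 higher, against 2.65% and 1.97% of all. At an unadjusted p under 0.05, 5 were lower and 0 higher, and DESeq2 called 0 higher. Those called lower by edgeR were MAGEE1 (-3.93 ± 0.43, edgeR adjusted p = 3.66e-05), MAGEA11 (-3.49 ± 0.39, edgeR adjusted p = 4.46e-05) and MAGEF1 (-0.52 ± 0.10, edgeR adjusted p = 0.00376). MAGEA11, a coactivator of the androgen receptor, fell from 1.48 ± 0.243 to 0.129 ± 0.0599 CPM. The median log2 fold change over the tested genes with counts was -0.33 for 13 in Hs578T and -1.98 for 6 in MDA-MB-231.

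Of 51 other X-linked cancer-testis antigens, 27 were tested. In Hs578T, 1 was called lower, CT45A1 (-2.23 ± 0.33, edgeR adjusted p = 0.000547), and 4 were called higher, led by SPANXD (4.32 ± 0.37, edgeR adjusted p = 1.95e-06) and IL13RA2, a decoy receptor for interleukin 13 (1.68 ± 0.20, edgeR adjusted p = 4.63e-05). In MDA-MB-231, 6 were called lower and 1 higher. The shares over all genes tested were 3.86% lower and 3.64% higher in Hs578T and 2.65% and 1.97% in MDA-MB-231. Among those called, CT45A10 (-5.42 ± 0.72), CTAG2 (-5.03 ± 0.36) and IL13RA2 (-3.64 ± 0.30) had the largest changes in MDA-MB-231, with edgeR adjusted p of 0.00022, 4.44e-07 and 2.11e-06. The medians were 0.21 in Hs578T and -0.46 in MDA-MB-231, against -0.00 and -0.02 over all genes tested. Among 15 tested cancer-testis antigens of other chromosomes, IGF2BP3 was called lower in Hs578T (-0.69 ± 0.15, edgeR adjusted p = 0.00706) and LY6K in MDA-MB-231 (-0.91 ± 0.13, edgeR adjusted p = 0.00037).

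**Figure D5:**
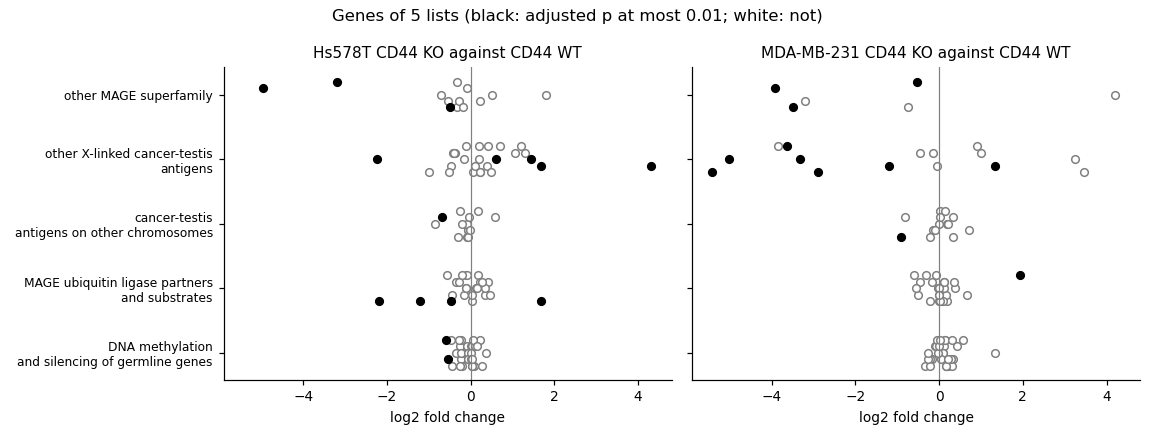
Log2 fold change of the tested genes of 5 lists with more than 3 counts, CD44 KO relative to CD44 WT for either line, on a shared linear axis. Each point is a gene, black where it was called and white where it was not. Black points lie mostly in the MAGE and X-linked lists.

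Of 25 tested ubiquitin ligases and substrates that MAGE proteins work with, 3 were called lower and 1 higher in Hs578T, where 7.51% of all genes were called, and 0 lower and 1 higher in MDA-MB-231, where 4.62% of all were. In MDA-MB-231, 3 were lower and 1 higher at an unadjusted p under 0.05, a count without a share over all genes, and DESeq2 called 1 lower. PRKAA1, the catalytic subunit of AMP-activated protein kinase that MAGEA3 and MAGEA6 act on with TRIM28, was not called, with log2 fold changes of -0.11 ± 0.16 in Hs578T and 0.12 ± 0.16 in MDA-MB-231. These are RNA values, which do not show how much of the protein is degraded. PRKAA2, the other catalytic subunit, had a log2 fold change of -2.19 ± 0.46 in Hs578T (edgeR adjusted p = 0.00479). NGFR, the p75 receptor that binds MAGED1, was lower in Hs578T (-1.21 ± 0.23, edgeR adjusted p = 0.00206) and higher in MDA-MB-231 (1.93 ± 0.26, edgeR adjusted p = 0.000234). UNC5B, a netrin receptor, was higher in Hs578T (1.67 ± 0.17, edgeR adjusted p = 8.88e-06). TRIM28 itself was at 623 ± 41.1 and 510 ± 42.8 CPM in Hs578T CD44 WT and KO, and at 762 ± 98.5 and 756 ± 47.7 CPM in MDA-MB-231, with no call.

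Of 32 tested genes that methylate DNA or keep germline genes silent, 2 were called lower in Hs578T and 0 higher (3.86% and 3.64% over all genes). At an unadjusted p under 0.05, 10 were lower and 0 higher, and DESeq2 also called 0 higher. Without a share over all genes at this unadjusted threshold, no excess is read from these counts in either line. Among those called lower was E2F6, a repressor of germline genes (-0.54 ± 0.10, edgeR adjusted p = 0.00208). In MDA-MB-231 0 of the 32 were called by edgeR, against 4.62% of all genes, 4 were lower and 6 higher at an unadjusted p under 0.05, and DESeq2 called 2 higher. DNMT1, the maintenance methyltransferase, had log2 fold changes of -0.25 in Hs578T and 0.13 in MDA-MB-231, neither called. The list counts of Hs578T rest on single libraries: over the 5 lists 15 genes were called, and 9 without WT replicate 1, 6 without WT replicate 2, 9 without KO replicate 1 and 7 without KO replicate 2 or 3.

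The genes most like MAGEA3 over the 12 libraries, by Pearson's r of log2 CPM, were KCNK5 (0.992), SYK (0.983), SUSD2 (0.971), PPFIBP2 (0.967) and ZNF195 (0.965). KCNK5, a potassium channel, was at 6.98 ± 1.99 and 4.09 ± 0.302 CPM in Hs578T CD44 WT and KO and at 4.95 ± 1.14 and 0.696 ± 0.0636 CPM in MDA-MB-231. The genes most like MAGEA8 were KCNA1 (0.995), SGCD (0.995), ZNF423 (0.991), MAGEB1 (0.991) and TBX5-AS1 (0.987), all at most 4 counts over the Hs578T CD44 KO libraries. The 12 libraries form 4 groups, so these values of r describe group means that move together and carry no test.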

How the data were processed

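Paired 50-base reads were aligned by the authors to GRCh38 (HISAT2 2.1.0), and fragments were counted by strand with featureCounts 1.6.2 on GENCODE annotation, leaving out fragments that aligned to several places. The deposited values are raw counts of 58381 genes in 12 libraries, with totals from 10257586 to 19725543. One MDA-MB-231 CD44 WT library could not be given its replicate number. The 10 members and the lists of related genes were chosen with earlier results of these data known. Genes were kept if over 1 CPM was reached by 2 or more libraries and their exons held 300 nt or more, and were tested with R 4.3.3 and edgeR 4.0.16 (TMM factors, glmQLFit with the legacy fit, glmQLFTest, 4 group means, all 12 libraries), with Benjamini-Hochberg adjustment over 15836 genes and calls at 0.01. The methods of the paper word the length filter as under 300 nt, and the opposite reading was used here. Log2 CPM used a prior count of 2. The fitted log2 fold changes did not use it and kept edgeR's own default prior count. Folds against 0 counts used a floor of 3 counts over the group, and exact 95% intervals cover counting error only. Named were all members, the 3 called list genes with the largest change per list and KO contrast (those between the WT lines are left out), and called genes within 1 Mb of a MAGEA member. PRKAA1, TRIM28, DNMT1 and single markers were named after their values were seen, and some genes that the rule would name are not reported here. Sequences came from RefSeq GRCh38.p14 promoters and from GENCODE exons on GRCh38. The test was checked on simulated data. DESeq2 1.42.0 and other alternatives are given under the processing heading.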

Additional observations from a re-analysis of the deposited data

Results flagged for a closer look

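Among the list genes with the largest called changes per list and contrast, the log2 fold changes of the lines differed for 9. This was a test of the difference itself (edgeR's interaction contrast, adjusted over all genes tested, threshold 0.01). Other list genes were not looked up in this test, so 9 is not a count over the lists. The genes were picked by large changes in the same libraries, a choice that favours a difference between the lines. The adjusted p below are therefore a description and no independent support. The share of all genes that pass this test is not given, so nothing is read from the 9. Hs578T minus MDA-MB-231, the difference was 7.22 for SPANXD (adjusted p = 8.33e-07), 5.32 for IL13RA2 (adjusted p = 6.71e-07), 4.998 for CT45A10 (adjusted p = 0.00122) and 4.57 for CTAG2 (adjusted p = 7.86e-06). It was 3.84 for MAGEE1 (adjusted p = 0.000158) and 3.16 for MAGEA11 (adjusted p = 0.000174). LY6K differed by 0.82 (adjusted p = 0.00761), IGF2BP3 by -1.01 (adjusted p = 0.00751) and NGFR by -3.13 (adjusted p = 4.12e-05). SPANXD and IL13RA2 rose in Hs578T and fell in MDA-MB-231, and NGFR did the reverse. CT45A10 had 1 count over the MDA-MB-231 CD44 KO libraries, so its difference depends on the prior count. No test of this kind is given for the members, whose values in these contrasts chose the family.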

How the results depend on the processing

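No called member changed direction under any alternative run (DESeq2, other scaling, filters, fits, thresholds, blocks, single lines and libraries left out). With a fold limit (log2 change of 1 or more in size) added, the members called went from 5 to 2 in Hs578T (MAGEA4 and MAGEA8) and from 2 to 1 in MDA-MB-231 (MAGEA3). With each library left out in turn, 4 to 5 members were called in Hs578T, 1 to 2 in MDA-MB-231 and 5 to 7 between the WT lines, 4 of which passed the filter only through Hs578T. The list genes called, 15 in Hs578T and 12 in MDA-MB-231, ranged from 6 to 22 and from 9 to 14 with a library left out. In Hs578T they were 25 with no filter on low counts, 24 at an adjusted p of 0.05 and 9 with the fold limit, and in MDA-MB-231 they were 20 at 0.05. The number called over all genes in Hs578T went from 1189 to 1984 with no filter and 2253 at 0.05, and to 744 with the fold limit. In MDA-MB-231 it went from 731 to 1138 with DESeq2, 1370 with no filter, 1518 at 0.05, 328 with the fold limit and 315 with that line fitted alone. Leaving out single libraries gave 605 to 1685 in Hs578T and 355 to 763 in MDA-MB-231. Between WT lines the fold limit left 5817 of 9742. The replicate block, by title number, gave 5, 2 and 7 members called in the 3 comparisons and 15 and 12 list genes, and the block by consecutive label numbers gave 4, 2 and 6, with 15 and 12. Deviations of same-numbered libraries correlated between -0.10 and 0.16, so these numbers were taken as names only. Depth limits what can be said of MAGEA10 and of the members at 0 in MDA-MB-231.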
